A study of Mus musculus with 2 samples.

Results

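Cluster 18 of the liver immune cells holds 152 cells that the deposited annotation names CD8αβ T cells. They were chosen by 2 entries of the cell metadata, the type name CD8αβ and cluster number 18 of the authors' clustering at resolution 1.2. They make up 152 of 11929 annotated cells, 115 from TG mice and 37 from WT mice, and 0 cells of cluster 18 carried another type name. The comparators were the 905 TG and 782 WT cells of the other CD8αβ clusters (4, 7, 12, 13 and 23) and the 410 TG and 194 WT cells named CD8αα T cells.

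The study captured CD45+ cells of the liver on the BD Rhapsody microwell system, which counts polyadenylated transcripts and the oligonucleotide tags of 49 surface antibodies in the same cell by unique molecular identifiers (UMIs). TG mice carry dnTGFβRII, a dominant negative type II TGF-β receptor of human origin under the CD4 promoter of the mouse, and are used as a model of autoimmune cholangitis. WT mice are wild type, and both groups are on the C57BL/6 strain with a labelled age of 10 weeks. The labels give no number of animals, and the study's methods give a younger age. TG cells were captured in 1 pool with cells of IFN-γ ARE-Del-/- mice, and WT cells in another pool with cells of P40-/-IL-2Ra-/- mice. Each genotype therefore has 1 library, no test between genotypes was possible, and an effect of genotype cannot be told apart from one of the capture. Intervals are 95% exact intervals for counting error only. The clusters were built from the same transcripts, so every difference between cluster 18 and other clusters describes the cluster and is not a test of it.

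CD8 T cells that recirculate leave tissues through the receptor S1PR1, whose gene is driven by the transcription factor KLF2. Resident memory cells shut both off and stay, and in the liver many of them carry CXCR6, which binds CXCL16 on sinusoidal endothelium, and the collagen-binding integrin CD49a (Itga1). The CD8 coreceptor is an αβ heterodimer on conventional T cells and an αα homodimer on several unconventional ones.

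The summed profile of cluster 18 held 411356 UMIs in TG and 89076 UMIs in WT. The median cell had 3569 UMIs in TG (1480 to 8710) and 2254 in WT (1086 to 5436), and the other CD8αβ cells had medians of 4927 and 3057. Mitochondrial transcripts were a median of 4.75% and 4.87% of the UMIs of a cell. Of the doublets called, 0 TG and 2 WT cells lay in cluster 18, and at least 2 UMIs of B lineage genes were found in 10 TG and 2 WT cells. The summed B cell markers stood at 744 CPM (UMIs per 1000000 UMIs of the summed profile) in the TG and 348 CPM in WT, against 35093 and 31804 CPM in mature B cells. Erythroid and platelet markers had 0 UMIs, and the hepatocyte markers had 0 UMIs in TG and 1 UMI in WT. Of 267 cell indices found in both library files, 3 belonged to cluster 18 cells.

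The name CD8αβ was checked against its markers first, and the result differed between the libraries. At least 1 UMI of Cd8a or Cd8b1, which encode the coreceptor chains, was present in 110 of 115 TG cells (95.7%, 90.1 to 98.6) and in 24 of 37 WT cells (64.9%, 47.5 to 79.8). UMIs of both chains were present in 95 TG cells (82.6%) and 17 WT cells (45.9%). With every cell thinned to 1000 UMIs, Cd8a or Cd8b1 was found in 89.6% of TG and 48.6% of WT cells of cluster 18. The same share was 59.6% and 65.2% in the other CD8αβ cells, and 73.0% and 73.7% in those outside cluster 7. It was 48.5% and 52.6% in CD8αα cells, and 3.56% and 5.89% in mature B cells, a type without either chain. The markers of other T cell types were read as whole lists. Of the 7 γδ T cell markers, 3 were detected in each library, summing to 72.9 and 202 CPM against 308 and 273 CPM in the other CD8αβ cells, and the receptor gene Trdc had 0 UMIs. Of the 6 NKT markers (Zbtb16, Klrb1c, Tbx21, Il2rb, Cxcr6 and Icos), 5 were detected in each library, summing to 1852 and 2571 CPM against 1435 and 1263 CPM in the other CD8αβ cells and 3850 and 4705 CPM in NKT cells. Zbtb16, their transcription factor, had 0 UMIs. Of 5 NKT markers tested in each library, 1 was over 2-fold higher and 1 lower in TG (median log2 ratio 0.01), and in WT 3 were higher and 0 lower (1.26, and 1.92 among cells with a CD8 UMI). Over all genes tested, 7.21% were higher and 8.74% lower in TG, and 6.53% and 7.79% in WT. Cxcr6 also belongs to the residency list. The CD4 T cell markers summed to 382 and 258 CPM, against 341 and 319 CPM in the other CD8αβ cells and 179 and 69.1 CPM in CD8αα cells. Without cluster 7 the other CD8αβ cells held 211 and 184 CPM, below cluster 18 in both libraries. The list medians over the other CD8αβ cells were 0.41 and -0.09, on 4 and 2 genes tested. Among cells with a CD8 UMI these medians were 1.12 and 0.73. The regulatory T cell markers summed to 158 and 157 CPM against 174 and 223 CPM in the other CD8αβ cells, and the NK cell markers to 202 and 427 CPM against 1269 and 479 CPM. Without cluster 7 the comparator held 79.3 and 204 CPM of the regulatory T cell markers, below cluster 18 in TG. It then held 641 and 296 CPM of the NK cell markers, below cluster 18 in WT.

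Surface CD4 and the Cd4 transcript gave different pictures. The CD4 antibody value, a natural-log centred ratio over the antibodies of a cell, had a median of 1.47 in TG and 1.66 in WT. It lay above the 95th percentile of CD8αα cells (2.30 in TG and 1.41 in WT) in 6 TG cells (5.22%, 1.94 to 11.0) and in 21 WT cells (56.8%, 39.5 to 72.9), compared with 17.7% and 20.5% of the other CD8αβ cells and 80.3% and 71.6% of NKT cells. Of the 13 WT cells with no Cd8a or Cd8b1 UMI, 11 lay above that level. Their medians were 2.03 for CD4, 0.38 for CD8b and 1.79 for TCRb. The WT NKT cells had 2.10, 0.41 and 1.65. WT cells of the other CD8αβ clusters without such a UMI had 1.34, 0.49 and 1.83. The 13 cells lay below the WT NKT cells in CD49a (1.09 against 1.95), Cxcr6 (214 against 711 CPM) and Klrb1c (342 against 784 CPM). CD4 T cells were not compared. Among the 24 WT cells with a Cd8a or Cd8b1 UMI, 10 lay above that CD4 level, with medians of 1.25 for CD4 and 1.22 for CD8b. The CD4 antibody read higher on CD8αα cells in TG (median 1.62) than in WT (0.57), so that level is set within each library. A Cd4 UMI was more frequent in TG, in 42 members (36.5%) against 6 (16.2%), at 158 and 112 CPM, and after thinning to 1000 UMIs it was found in 13.9% and 10.8%. A CD8 transcript was thus present in most TG members, while 13 of the WT members had no CD8 UMI and 11 of those stood above the CD4 level of CD8αα cells. Those 13 cells were also shallower, with a median of 1693 UMIs against 2509 in the WT members with a CD8 UMI. The results that follow are given for all members, and the values among cells with a CD8 UMI stand beside those they bear on. That split was chosen after the data were seen.

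**Figure D1:**
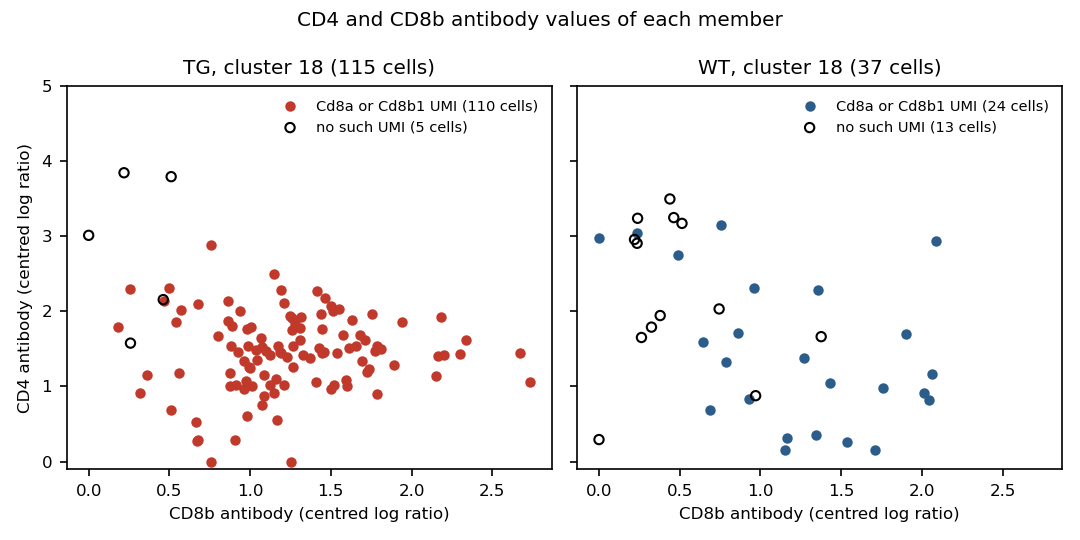
Each point is 1 cell of cluster 18, placed by its CD8b antibody value (x axis) and its CD4 antibody value (y axis), both natural-log centred ratios, with TG on the left and WT on the right; filled points hold a Cd8a or Cd8b1 UMI and open points hold none. The 5 open TG cells and the 13 open WT cells lie mostly at low CD8b and raised CD4.

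Cluster 18 held a larger part of the CD8αβ cells in the TG library. In TG it held 115 of 1020 CD8αβ cells, or 11.3% (9.40 to 13.4). In WT it held 37 of 819, or 4.52% (3.20 to 6.17), a difference of 6.76 percentage points (4.32 to 9.18, Newcombe interval). Clusters 7 and 12 also held larger parts in TG, at 31.3% against 16.1% and 24.4% against 8.91% in WT. Cluster 13 was 17.4% of TG and 16.8% of WT CD8αβ cells. Cluster 4 was 44.3% of WT and 14.2% of TG CD8αβ cells, and cluster 23 was 9.28% and 1.47%. Outside cluster 4 the shares of cluster 18 were 13.1% (11.0 to 15.6) and 8.11% (5.78 to 11.0), a difference of 5.03 points (1.49 to 8.27). Of all annotated cells, cluster 18 was 2.47% in TG and 0.508% in WT.

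Itga1 and Cxcr6, which are known for holding T cells in the liver, were higher in cluster 18 than in the other CD8αβ clusters, while several other residency genes, given below, were not. Itga1 stood at 355 CPM (146 UMIs) in the TG and 191 CPM (17 UMIs) in WT, against 67.9 and 27.6 CPM in the other CD8αβ clusters. The log2 ratio of cluster 18 over the other CD8αβ cells was 2.39 (2.10 to 2.67) in TG and 2.79 (1.94 to 3.56) in WT. In WT Itga1 fell below the minimum of 5 expected UMIs in the smaller profile, so it was not tested for size there. Itga1 UMIs lay in 64 of 115 TG cells but in only 8 of 37 WT cells, 3 of which held 58.8% of the WT UMIs. Cxcr6 stood at 647 CPM in the TG and 617 CPM in WT, against 69.1 and 153 CPM, with log2 ratios of 3.23 (2.99 to 3.46) and 2.01 (1.58 to 2.42). Cxcr6 was found in 89 TG cells (77.4%) and 22 WT cells (59.5%). Among cells with a CD8 UMI the ratios were 2.72 and 3.17 for Itga1 and 3.34 and 2.50 for Cxcr6. Itga1 (ENSMUSG00000042284) lies on chromosome 13 (GRCm38, 114953096 to 115101964, minus strand) and Cxcr6 (ENSMUSG00000048521) on chromosome 9 (123806475 to 123811760, plus strand), and both are protein coding.

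Itga1 and Cxcr6 were also set side by side at 1 depth. After thinning to 1000 UMIs, a UMI of Itga1 or Cxcr6 was found in 57.4% of TG and 51.4% of WT members, in 11.2% and 12.4% of other CD8αβ cells, in 56.6% and 58.2% of CD8αα cells and in 2.53% and 2.61% of B cells. The share was 52.5% and 53.2% in NKT cells and 13.3% (2 of 15 cells) and 39.5% in cluster 23, so cluster 18 lay close to both the CD8αα and the NKT cells. Across the single CD8αβ clusters Cxcr6 ran from 15.2 CPM (cluster 4) to 362 CPM (cluster 23) in TG and from 55.8 CPM (cluster 13) to 473 CPM (cluster 23) in WT, below cluster 18 in both libraries. Without thinning, a UMI of either gene was present in 102 of 115 TG members (88.7%) and 24 of 37 WT members (64.9%).

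S1pr1, the egress receptor, stood at 36.5 CPM (15 UMIs) and 56.1 CPM (5 UMIs) in TG and WT members, against 137 and 157 CPM in the other CD8αβ clusters, with log2 ratios of -1.91 and -1.48. Klf2 stood at 158 and 213 CPM against 672 and 510 CPM, with log2 ratios of -2.09 (-2.47 to -1.73) and -1.26 (-1.99 to -0.61). Ccr7, which guides naive cells into lymph nodes, had 6 UMIs in TG and 0 in WT. Dapl1, a gene of naive CD8 T cells, had 0 UMIs in both, which puts it at least 6.87-fold lower in TG and 2.56-fold lower in WT against a floor of 3 counts over the members. Plek, a cytoskeletal adaptor substrate of protein kinase C, also had 0 UMIs, at least 21.8-fold and 2.07-fold lower.

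**Figure D2:**
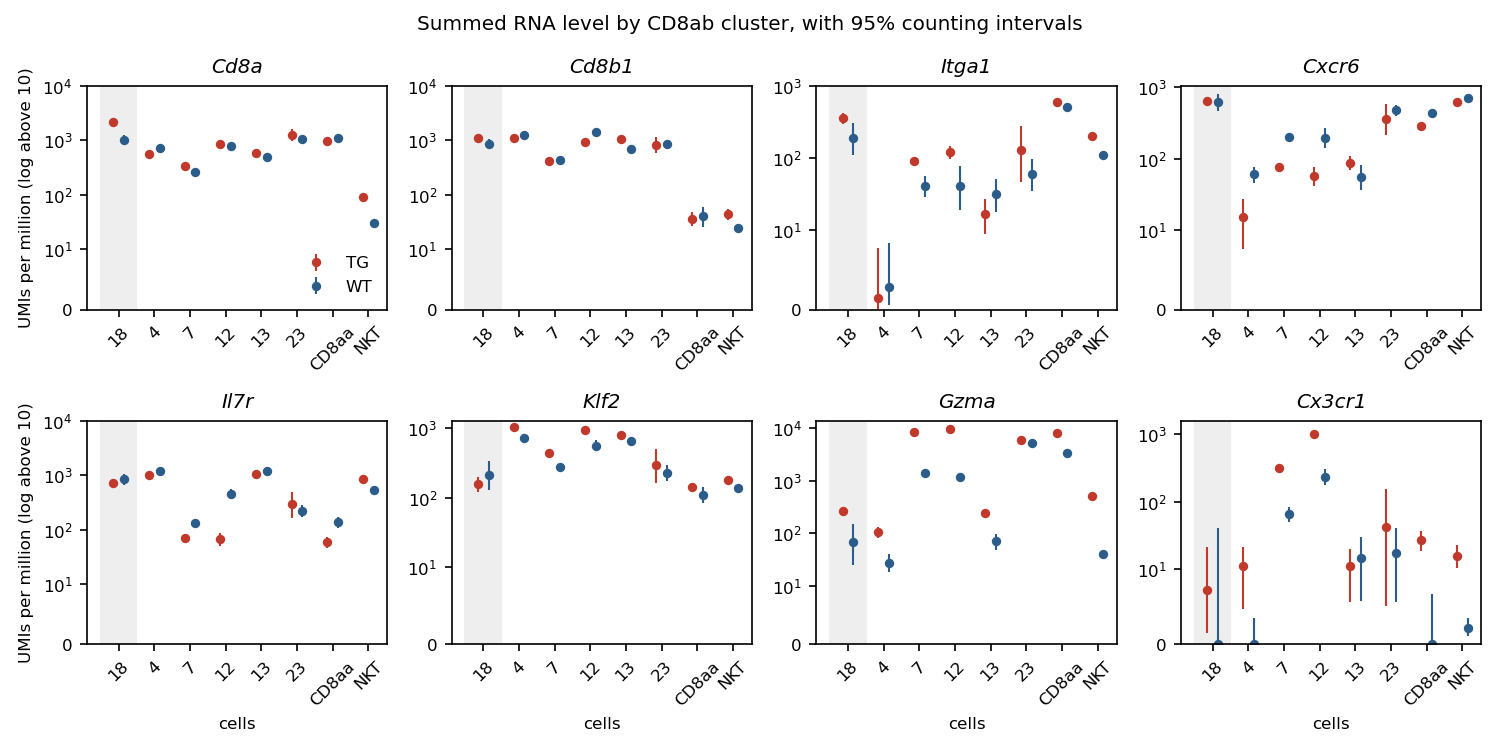
Summed RNA level of 8 genes in CPM (y axis, linear to 10 and log above) in cluster 18 (shaded), the other CD8αβ clusters, CD8αα and NKT cells, with TG and WT side by side and bars for 95% counting intervals. Cxcr6 stood at 647 and 617 CPM in cluster 18 and at 69.1 and 153 CPM over the other CD8αβ clusters, while Klf2 was low at 158 and 213 CPM.

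The other defining residency genes were uneven. Zfp683, encoding the resident-cell transcription factor Hobit, was at 53.5 CPM (22 UMIs) in TG against 5.32 CPM, a log2 ratio of 3.33 (2.44 to 4.21), but had 1 UMI in WT. Itgae, the αE integrin chain of CD103, had 1 UMI in TG and 2 in WT. Cd69, which holds cells in tissue by pulling down S1PR1, was at 221 and 326 CPM, close to the 188 and 291 CPM of the other clusters. Rgs1, a brake on chemokine receptor signalling, was at 724 and 595 CPM, with log2 ratios of 2.22 and 1.01. Of the 10 residency genes listed, 7 had enough expected counts in TG and 5 in WT, and 3 in each were over 2-fold higher, with 0 lower. Zfp683 in TG and Itga1 in WT did not have enough, so these counts leave them out there. Over all genes tested, 7.21% were over 2-fold higher in TG (547 of 7586) and 6.53% in WT (196 of 3002). The study named several residency genes from these same libraries, so this list is not independent evidence of its direction. The list medians were 0.51 and 1.03, against 0.11 and 0.13 over all genes tested, and were 0.72 and 1.16 among cells with a CD8 UMI. The summed list stood at 2433 and 2470 CPM in cluster 18, against 854 and 1304 CPM in the pooled other CD8αβ clusters. It stood at 2319 and 2937 CPM in cluster 23, 2291 and 2652 CPM in NKT cells and 3037 and 4198 CPM in CD8αα cells.

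Ranked by the smaller of its differences in the 2 libraries, surface CD49a, the protein of Itga1, came first of the 49 antibodies. Its median was 2.95 (quartiles 2.46 and 3.49) in TG members and 1.76 (0.89 and 2.77) in WT members, against 0.92 and 0.39 on the other CD8αβ cells and 3.18 and 2.97 on CD8αα cells. CD49a lay above the 95th percentile of B cells on 92.2% of TG members (85.7 to 96.4) and 78.4% of WT members (61.8 to 90.2), compared with 54.0% and 18.2% of the other CD8αβ cells. The 13 WT members without a CD8 UMI had a median of 1.09, and those with one 2.26. CD69 protein was higher, while its transcript was close to the comparator, with a median of 0.36 and 0.41 against 0.14 and 0.30, and 33.9% and 35.1% of members above the B cell level against 4.20% and 10.5%. CD44, a marker of antigen-experienced cells, had medians of 3.71 and 3.27 against 3.19 and 2.36. CD103 was above the B cell level on 3.48% and 5.41% of members, compared with 2.76% and 33.2% of the other CD8αβ cells. The WT share came from cluster 4, with 225 of 363 cells (62.0%), while clusters 7, 12, 13 and 23 lay between 6.58% and 9.59%.

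Of the 49 antibodies, 10 had a higher and 11 a lower median on cluster 18 in both libraries. CD357 (GITR, a costimulatory receptor) differed by 0.24 and 0.08, and CD137 (4-1BB) by 0.04 and 0.10, well inside the spread between cells. The lower ones included CD90.2 (Thy-1, by -0.51 and -0.63), CD8b (-0.45 and -0.73), CD95 (Fas, -0.26 and -0.23) and TCRb (-0.22 and -0.90). CD8b stood at 1.19 and 0.86 on cluster 18, 1.64 and 1.59 on the other CD8αβ cells and 0.41 and 0.49 on CD8αα cells. Mature B cells had 1.63 and 1.70 for the same antibody, so its value does not by itself mark T cells with CD8β.

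**Figure D3:**
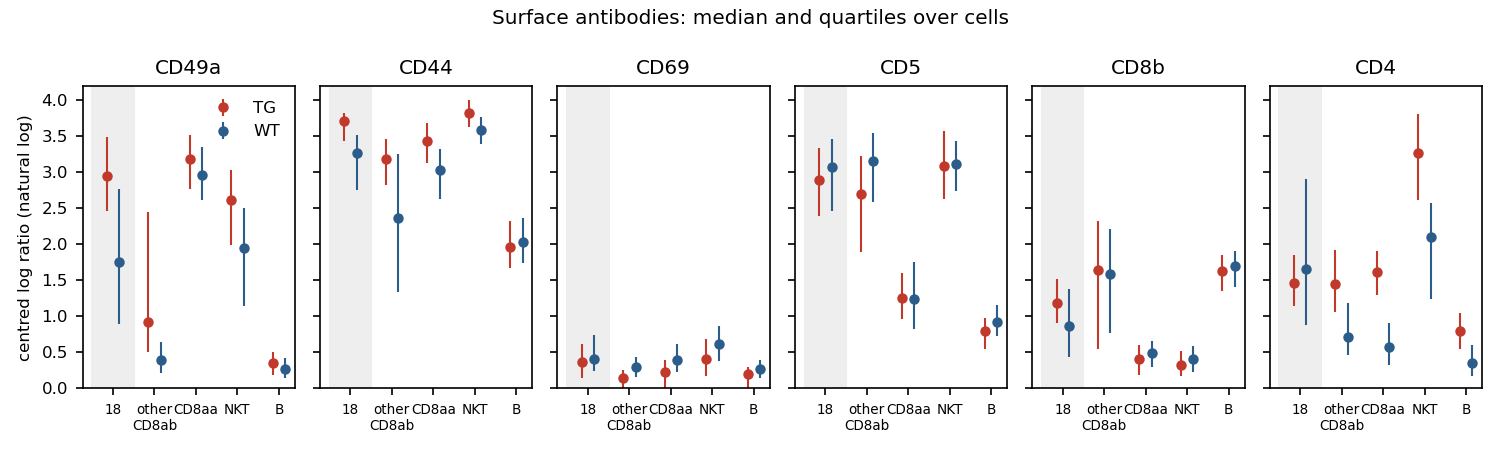
Median antibody value (y axis, natural-log centred ratio) with quartiles over cells for 6 antibodies in cluster 18 (shaded), other CD8αβ, CD8αα, NKT and mature B cells of TG and WT. CD49a stood at 2.95 and 1.76 on cluster 18 against 0.92 and 0.39 on the other CD8αβ cells, and CD4 at 1.47 and 1.66 on cluster 18.

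By size, 10 genes stood furthest above the other CD8αβ clusters in both libraries. They were Atp8a2, Lilr4b, P2rx7, Serpina3g, Cd160, Cxcr3, Rab11fip1, Cxcr6, Asb2 and Art2b. The rule that named them asked for at least 50 UMIs in all. In WT Atp8a2 and P2rx7 fell below the minimum of 5 expected UMIs, so they were not tested for size there. Atp8a2, a phospholipid flippase, stood at 163 and 89.8 CPM against 10.4 and 12.1 CPM, log2 ratios of 3.97 and 2.89. Lilr4b, an immunoglobulin-like receptor, had ratios of 2.86 and 2.46, and Asb2, a ubiquitin ligase adaptor, 3.82 and 1.84. Serpina3g, an inhibitor of lysosomal proteases, had ratios of 2.41 and 2.18. Rab11fip1, an endosomal recycling protein, had 2.05 and 2.13. Cd160, an HVEM-binding receptor of cytotoxic cells, stood at 778 and 326 CPM against 118 and 76.6 CPM.

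P2rx7 and Art2b are partners at the cell surface, since ADP-ribosyltransferase ART2 modifies the ATP-gated channel P2X7 and opens it. P2rx7 stood at 299 and 191 CPM against 57.5 and 37.0 CPM, with log2 ratios of 2.38 and 2.37, and Art2b at 294 and 292 CPM against 63.8 and 82.3 CPM, with ratios of 2.21 and 1.83. Cxcr3, the receptor of interferon-induced chemokines, stood at 491 and 472 CPM against 116 and 98.1 CPM, ratios of 2.09 and 2.26. NKT cells held P2rx7 at 270 and 241 CPM.

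Cytotoxic genes divided by member. Gzma, the granzyme A protease, was low at 263 CPM (108 UMIs) in the TG and 67.4 CPM (6 UMIs) in WT, against 5687 and 1045 CPM in the other CD8αβ clusters, log2 ratios of -4.44 and -3.96. Mature B cells, which should lack it, held Gzma at 423 and 189 CPM, so the level in cluster 18 lay below that of B cells. Clusters 4 and 13 were also low in Gzma, at 105 and 246 CPM in TG. Gzmb stood at 754 and 393 CPM against 813 and 315 CPM. The cytokine genes of the effector list were uneven. Ifng, Tnf, Fasl and the chemokine gene Xcl1 had log2 ratios of 0.63 and 1.81, 1.17 and 1.43, 0.96 and 1.74 and 1.60 and 1.94. The chemokine genes Ccl3, Ccl4 and Ccl5 had ratios of -1.71 and -0.85, -0.17 and 0.24 and -0.38 and 0.73, and Il2 had 9 and 0 UMIs. Of the whole effector list, 2 of 16 genes tested in TG were over 2-fold higher and 3 lower, against 7.21% and 8.74% of all genes, with 10 of 16 below 0 and a median of -0.14. In WT 3 of 13 were higher and 1 lower, against 6.53% and 7.79%, with a median of 0.34. The WT ratios of Ifng, Tnf, Fasl and Xcl1 all lay past 2-fold, so not all of these genes had the UMIs needed to be among the 13 tested.

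Most genes of the terminal effector and NK receptor lists were lower in TG members than in the pooled other CD8αβ clusters. Cx3cr1, the fractalkine receptor of circulating effector cells, stood at 7.29 CPM (3 UMIs) against 315 CPM, and Klrg1, an inhibitory lectin, at 34.0 against 379 CPM. Zeb2, a transcription factor of terminal effectors, stood at 9.72 against 116 CPM. Of 10 terminal effector genes, 7 were over 2-fold lower in TG, and of 15 NK receptor genes 13 were lower and 1, Cd7, higher (2.16). Cd7, a surface protein of T and NK cells, held 1030 of the 1120 UMIs of the NK receptor list in TG members, and through it the summed list stood at 2723 CPM against 2196 CPM. The summed terminal effector list stood at 2168 CPM in TG members, above clusters 4 and 13 (814 and 1379 CPM) and below clusters 7, 12 and 23 (10580, 14475 and 7743 CPM), so low values were shared with clusters 4 and 13. Over all genes tested, 8.74% were lower in TG. In WT only 3 and 6 genes could be tested, of which 1 and 2 were over 2-fold higher and 1 and 1 lower. Klrk1, which encodes NKG2D, stood at 24.3 and 67.4 CPM against 201 and 94.8 CPM. Klra7, of the Ly49 family, had 2 UMIs in TG and 1 in WT, a family of near-identical genes whose reads the counting can misassign.

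Over all genes tested, 7.21% were over 2-fold higher and 8.74% lower in TG, and 6.53% and 7.79% in WT, and the lists in this paragraph are read beside those shares. Among the memory genes 2 of 14 were over 2-fold higher and 4 lower in TG, and 4 of 12 higher and 1 lower in WT. Il7r, the receptor that sustains memory cells, stood at 705 and 853 CPM against 399 and 703 CPM. Eomes, a memory and effector transcription factor, had 2 UMIs in TG (4.86 CPM) against 127 CPM in the other clusters, and 15 UMIs in WT (168 CPM) against 99.8 CPM. Of the 14 naive and quiescent genes, 7 were over 2-fold lower in TG and 9 in WT. The summed list stood at 2915 and 3458 CPM in cluster 18. It was higher in clusters 4 (6708 and 7502 CPM), 13 (5195 and 5850 CPM) and 12 (3258 and 3697 CPM). It was lower in clusters 7 (1953 and 2244 CPM) and 23 (2638 and 2485 CPM) and in CD8αα cells (2001 and 1935 CPM). Tcf7, a regulator of memory stemness, stood at 362 and 303 CPM against 355 and 539 CPM. The checkpoint list summed to 987 and 606 CPM, against 327 and 468 CPM in the pooled other CD8αβ clusters. Cd160 made up 320 of the 406 UMIs of the list in TG and 29 of 54 in WT. The sum was higher in cluster 23 (1808 and 2321 CPM) and in CD8αα cells (1584 and 1676 CPM). Clusters 4 (137 and 150 CPM), 7 (405 and 353 CPM), 12 (321 and 560 CPM) and 13 (208 and 246 CPM) were lower. A sum above the pool was thus not particular to the members. Pdcd1 had 2 and 0 UMIs and Havcr2 0 and 1, and in TG the levels of Tigit and Lag3 were 34.0 and 29.2 CPM. Of the checkpoint list, 3 of 7 genes tested in TG were over 2-fold higher and 1 lower, and 1 of 3 in WT was higher. Of the chemokine and S1P receptors, 3 of 11 were higher and 6 lower in TG, and 3 of 9 higher and 3 lower in WT. Lists of so few genes tested cannot set counts of 1 or 2 apart from the shares over all genes.

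The genes of cell division were far below the comparator, with 15 of 16 over 2-fold lower in TG and 11 of 15 in WT, against 8.74% and 7.79% of all genes, and list medians of -3.66 and -3.06 (-2.31 in WT with the 5 genes at 0 UMIs set to their bound). That gap rested on cluster 7. Without cluster 7 the TG median was 0.00, and the summed list stood at 1293 and 1403 CPM in cluster 18 against 1312 and 1297 CPM. Pclaf, Stmn1, Ccna2, Rrm2, Nusap1, Ccnb2 and Tpx2 were among the 10 lowest genes by size for the same comparison, and Nusap1 had 0 UMIs in both libraries of cluster 18. With cluster 7 left out, an alternative added after the data were seen, the lowest genes were Dapl1, Trdc, Gzma, Il6ra, Plek, Tdrp, Actn1, Ccr7 and Nsg2 beside 1 not reported here. Ckb and Ly6a then joined the highest 10, from which Rab11fip1 and Art2b dropped out.

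Most genes of the interferon lists lay above 0 in cluster 18 over the other CD8αβ clusters, with more of them past 2-fold in TG than the 7.21% of all genes. Of 14 GTPase genes induced by IFN-γ that could be tested in TG, 10 were over 2-fold higher and 14 lay above 0, with a median of 1.21. In WT 6 could be tested, 3 were over 2-fold higher and 6 lay above 0, with a median of 0.95. Gbp4 stood at 226 and 225 CPM against 78.7 and 103 CPM (1.52 and 1.12), Igtp at 136 and 191 CPM against 67.7 and 83.3 CPM (1.01 and 1.2) and Irgm1 at 139 and 123 CPM against 61.7 and 60.8 CPM (1.17 and 1.02). These GTPases attack the vacuoles of intracellular pathogens. Gbp9 differed between the libraries, with a ratio of 2.46 in TG and 0.89 (-0.35 to 1.91) in WT.

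Of the genes induced by type I interferon, 32 could be tested in TG, where 15 were over 2-fold higher, 0 lower and 29 above 0. In WT 15 could be tested, where 2 were over 2-fold higher, 0 lower and 14 above 0. With 6.53% of all genes over 2-fold higher in WT, 2 of 15 is too few to set the list apart there. Irf7, which amplifies the type I response, had ratios of 1.31 and 1.82, but in WT it fell below the minimum of 5 expected UMIs and was not among the 15 tested. Ifi208, of the AIM2-like family of similar genes, had 1.80 and 1.22. Of 15 genes of MHC class I and the immunoproteasome, 15 in TG and 14 in WT lay above 0, but 0 and 1 passed 2-fold, with medians of 0.59 and 0.56. Among cells with a CD8 UMI the medians of the GTPase list were 1.28 and 0.54, those of the type I list 0.93 and 0.46 and those of the MHC list 0.66 and 0.52. H2-K1 stood at 4991 and 3862 CPM against 2949 and 2577 CPM. The MHC and GTPase levels were close to those of other classes. The summed MHC list stood at 21495 and 18355 CPM in cluster 18, 21911 and 18369 CPM in cluster 23 and 21073 and 19065 CPM in CD8αα cells, and the summed GTPase list at 2144 and 1751 CPM in cluster 18 and 2096 and 1776 CPM in NKT cells. The summed type I list stood at 6376 and 5344 CPM in cluster 18 and 5609 and 4499 CPM in NKT cells.

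Many interferon genes have a sequence in common at their start. GAAANNGAAA, the pair of repeats read by interferon regulatory factors, was looked for on both strands from 250 bases before to 50 bases after each start in the promoters of RefSeq (GRCm38.p6). It was found in 943 of 27025 promoters (3.49%), in 18 of 31 promoters matched to the type I interferon list (58.1%), in 9 of 10 matched to the IFN-γ GTPase list (90.0%) and in 0 of 3 matched to the residency list. Of 13 matched genes of either list that lay above 0 in both libraries, 9 held it (69.2%), a rate between those of the whole lists. The lists were made of interferon-induced genes, so these rates describe the lists and are no evidence about cluster 18. The 30 bases around the match are shown for 8 genes named or counted above, since both interferon lists had medians above 0 in both libraries. Capitals mark 1 match in each, and those with TTTC hold it on the other strand. The Irgm1 window holds 2 overlapping matches, and the second, 24 to 15 bases before the start, runs on into its lower-case letters.
Ifi206: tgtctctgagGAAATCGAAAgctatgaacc
Ifi213: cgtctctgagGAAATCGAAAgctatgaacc
Ifi208: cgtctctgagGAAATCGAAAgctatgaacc
Gbp7: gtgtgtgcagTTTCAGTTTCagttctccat
Gbp2: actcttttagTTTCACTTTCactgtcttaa
Trim30a: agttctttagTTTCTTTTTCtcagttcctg
Irgm1: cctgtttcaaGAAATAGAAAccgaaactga
Igtp: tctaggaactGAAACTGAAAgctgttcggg
The Igtp stretch is chr11:58199512-58199541 on the plus strand, with the match 34 to 25 bases before the start, and the Irgm1 stretch is chr11:48871431-48871460 on the minus strand, 30 to 21 bases before it. The stretches of Ifi208 (chr1:173673597-173673626, plus strand) and Ifi213 (chr1:173599326-173599355, minus strand) are the same 30 letters. A match describes the letters of the window and is no evidence of binding. In cluster 18 the log2 ratios over the other CD8αβ cells were 0.87 and 0.54 for Ifi206, 1.05 and 1.39 for Ifi213, 0.68 and 0.54 for Gbp7, 0.98 and 0.22 for Gbp2 and 0.75 and 0.96 for Trim30a, in TG and WT.

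**Figure D4:**
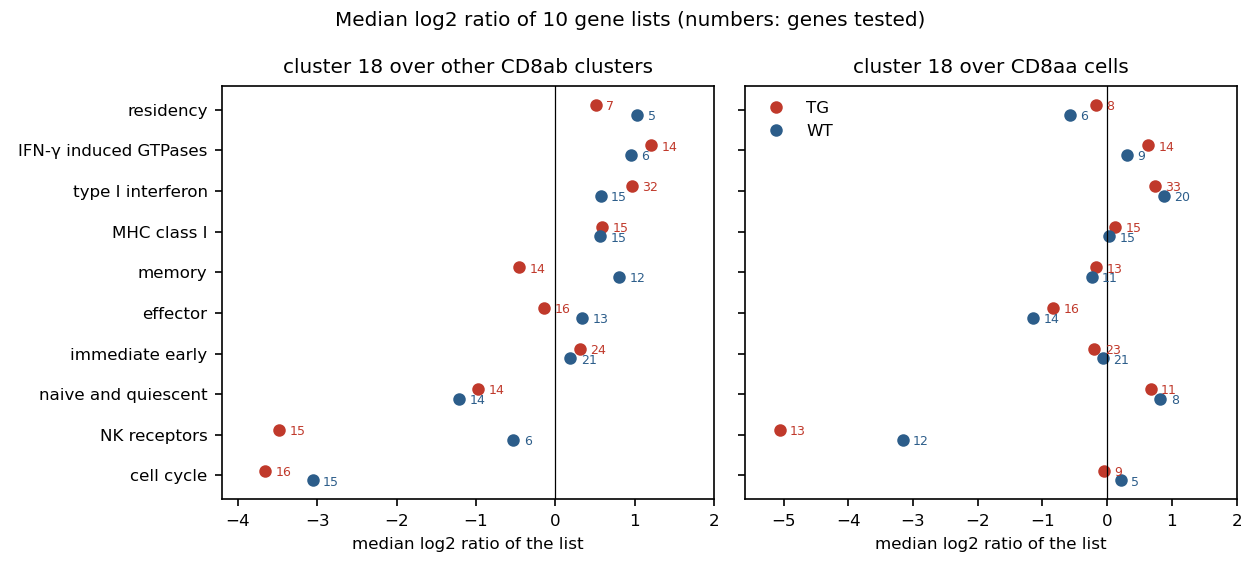
Median log2 ratio (x axis) of 10 gene lists in cluster 18 over the other CD8αβ clusters (left) and over CD8αα cells (right) for TG and WT, with the number of genes tested beside each point. The IFN-γ GTPase list lay at 1.21 and 0.95 on the left, the cell cycle list at -3.66 and -3.06, and the NK receptor list at -5.06 and -3.16 on the right.

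Lists of growth and activation showed small shifts. The nucleolar and growth genes driven by Myc had medians of -0.57 and -0.46, with 0 of 13 in TG and 2 of 11 in WT above 0. Immediate early genes had medians of 0.31 and 0.19, with 1 of 24 and 0 of 21 over 2-fold higher against 7.21% and 6.53% of all genes, and the TG median was -0.01 with equal weight per cluster and -0.17 without cluster 7. Glycolysis genes had medians of -0.34 and 0.04, the BCL-2 family -0.06 and 0.23, heat shock genes -0.03 and -0.17 and the TGF-β pathway genes 0.09 and -0.01.

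Against CD8αα cells, cluster 18 had lower NK receptor genes and mixed residency genes. The CD8αα cells of the 2 libraries were unlike. After thinning, a Trdc UMI was found in 3.41% of them in TG and 34.5% in WT. Their erythroid markers summed to 0.755 CPM in TG and 4893 CPM in WT. Of the residency list, 1 of 8 genes tested in TG was over 2-fold higher and 1 lower, and in WT 0 of 6 were higher and 3 lower. Cd8b1, the chain that separates the classes, stood at 1113 and 864 CPM against 35.5 and 40 CPM in CD8αα cells, log2 ratios of 4.97 and 4.43. Of the NK receptor genes, 13 of 13 tested in TG and 12 of 12 in WT were over 2-fold lower, against 7.06% and 9.26% of all genes tested. Klra1 had 2 UMIs in TG and 0 in WT. Klra5 had 0 UMIs in cluster 18, at least 21.1-fold lower in TG and 23.6-fold lower in WT, and Klra7 had 2 and 1 UMIs in cluster 18 against 1394 and 658 CPM in CD8αα cells. Gzmb stood at 754 and 393 CPM against 5017 and 4902 CPM. Itga1 was lower than in CD8αα cells (-0.73 and -1.44), while Cxcr6 was higher (1.16 and 0.53).

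The 5 genes named by size as higher than in CD8αα cells were Cd8b1, Cd6, Ly6a, Kcnn4 and Ifi27l2a. Over all genes tested 3.47% in TG and 4.13% in WT were over 2-fold higher. In WT Cd6, Kcnn4 and Ifi27l2a fell below the minimum of 5 expected UMIs, so they were not among the genes tested there. Il7r stood at 705 and 853 CPM against 58.9 and 138 CPM, log2 ratios of 3.58 (3.22 to 3.96) and 2.63 (2.15 to 3.10). Cd6, a T cell scavenger receptor that tunes receptor signals, stood at 129 and 146 CPM against 4.53 and 7.27 CPM. Ly6a, encoding the interferon-responsive surface protein Sca-1, had ratios of 3.92 and 3.38. Kcnn4, a calcium-activated potassium channel, stood at 68.1 and 112 CPM against 7.55 and 12.7 CPM, and Ifi27l2a at 370 and 269 CPM against 46.8 and 9.09 CPM. Cd28, the costimulatory receptor, stood at 146 and 258 CPM against 16.6 and 49.1 CPM. CD5, which restrains receptor signalling, was also higher as protein, by 1.66 and 1.84. Of the type I interferon list, 9 of 33 genes tested in TG and 7 of 20 in WT were over 2-fold higher and 0 lower.

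Likeness was read over the genes with the most UMIs in the CD8αβ, CD8αα and NKT cells of each library together. NKT cells held most of the WT UMIs behind that choice. On those genes the summed profile of cluster 18 lay nearest to that of the NKT cells among the classes compared. Pearson's r of log2 CPM across genes was 0.936 in TG (3060 genes) and 0.876 in WT (3583 genes), against 0.868 and 0.815 for CD8αα cells, 0.859 and 0.834 for cluster 13, 0.846 and 0.836 for cluster 12, 0.777 and 0.861 for cluster 23, 0.836 and 0.788 for cluster 4 and 0.699 and 0.748 for cluster 7. In WT cluster 23 was thus almost as near as the NKT cells. Mature B cells, which had no part in the choice of genes, stood at 0.732 and 0.748. An r as high as that of cluster 7 therefore does not set T cells apart. Genes are not independent replicates, the profiles of each row come from 1 library, and the classes differ in depth, so r stands as a description. The NKT cells had Cd8a at 90.6 and 29.7 CPM against 2166 and 1010 CPM in cluster 18, and Cd8b1 at 43.6 and 24.2 CPM. Zbtb16, at 0 UMIs in cluster 18, puts the members below 7.29 CPM in TG and 33.7 CPM in WT, while NKT cells held 43.0 and 107 CPM. The summed NKT markers, given above, lay between the pooled other CD8αβ cells and the NKT cells in both libraries. Cluster 23 (2319 and 2783 CPM) and CD8αα cells (3329 and 3700 CPM) lay above cluster 18, so this level was not particular to it.

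Within cluster 18, TG was set against WT with the same ratio in the other CD8αβ clusters beside it. Over 3237 genes tested, 238 were over 2-fold higher in TG (7.35%) and 125 lower (3.86%), 11.2% in either direction. In the other CD8αβ clusters, over 10629 genes, 4.37% were higher and 3.49% lower, 7.86% in either direction. The WT side rested on 37 cells and 89076 UMIs, so single genes have wide intervals. Plac8, a lysosomal protein of activated lymphocytes, stood at 904 CPM (372 UMIs) in the TG and 157 CPM (14 UMIs) in WT, a log2 ratio of 2.52 (1.76 to 3.41), against 0.75 in the other CD8αβ clusters. Fgl2, an immunosuppressive fibrinogen-like protein, had 1.69 (other clusters 1.43), Ly6c2, a memory and interferon-linked surface protein, 1.63 (1.1), Psmb9, an immunoproteasome subunit, 1.57 (0.96), Mta3, of a chromatin remodelling complex, 1.60 (0.13), and Cdipt, an enzyme of phosphatidylinositol synthesis, 1.60 (0.25). Plac8 was at 2.58 among cells with a CD8 UMI. The differences between cluster 18 and the other clusters were not tested.

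Ccr9, the receptor that draws T cells toward the gut, was higher in TG than in WT members of cluster 18 and lower in TG in the pool of other CD8αβ clusters. It stood at 428 CPM (176 UMIs in 60 of 115 cells) in the TG and 135 CPM (12 UMIs in 5 of 37 cells) in WT, a log2 ratio of 1.67 (0.83 to 2.65). In the other CD8αβ clusters Ccr9 was at 27.8 CPM in the TG and 106 CPM in WT, a ratio of -1.92 (-2.22 to -1.63). The clusters of that pool take different shares in the 2 libraries, so Ccr9 was also read within each. It stood at 15.2 and 161 CPM in cluster 4, 40.9 and 108 CPM in cluster 7, 34.0 and 50.1 CPM in cluster 12 and 1.03 and 10.3 CPM in cluster 13, and had 0 and 28 UMIs in cluster 23. The TG value was the lower in each, with counting intervals that overlapped in clusters 12, 13 and 23. Of the WT UMIs in cluster 18, 83.3% lay in 3 cells, and among cells with a CD8 UMI the ratio within cluster 18 was 2.06. Within TG alone the ratio of cluster 18 over the other CD8αβ clusters was 3.94 (3.61 to 4.28). NKT cells held Ccr9 at 292 and 195 CPM.

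Igkc and Cd74, both among the genes named as higher in TG members, are genes of B cells. Igkc, the immunoglobulin κ constant gene, stood at 741 CPM in the TG and 101 CPM in WT members (2.88, 1.93 to 4.02), and in B cells at 11739 and 10317 CPM, and 3 cells held 88.9% of its UMIs in WT members. Cd74, the MHC class II invariant chain, stood at 340 and 112 CPM (1.60), and in B cells at 14765 and 14221 CPM. The summed B cell list was likewise higher in TG members, at 744 against 348 CPM, and its part in these ratios was not tested. Gzma had a TG over WT ratio of 1.96 in cluster 18 and 2.44 in the other clusters, with B cells at 423 and 189 CPM.

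Of genes with at least 50 UMIs over both profiles, the 10 named by size as lower in TG members were led by Dusp5 and Tnfaip3. Dusp5, a phosphatase of ERK, stood at 65.6 CPM (27 UMIs) against 314 CPM (28 UMIs), a log2 ratio of -2.26 (-3.08 to -1.44), and Tnfaip3, encoding the NF-κB inhibitor A20, at 260 CPM against 921 CPM, -1.82 (-2.25 to -1.39). The same ratios in the other CD8αβ clusters were -0.78 and -1.32. Etv3 (-1.56), a transcriptional repressor, Kdm6b (-1.38), a histone demethylase, Ss18 (-1.58), of the BAF complex, and Emb (-1.38), a membrane glycoprotein, were at -0.84, -0.68, -0.33 and -1.41 in the other clusters. Of the immediate early list, 5 of 21 genes were over 2-fold lower in TG members and 0 higher, against 3.86% and 7.35% of all genes, with 19 of 21 below 0 and a median of -0.37. In the other CD8αβ clusters 25 of 25 lay below 0, with a median of -0.52. Itsn2 (-1.39), an endocytic scaffold, and Srp9 (-1.33), of the signal recognition particle, stood near 0 in the other clusters (-0.06 and -0.12), and Atp6v1e1, of the vacuolar proton pump, and Ttc7 were at -1.37 and -1.36 in cluster 18 and 0.22 and 0.17 elsewhere. Dusp5 was at -2.22 and Tnfaip3 at -1.53 among cells with a CD8 UMI.

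**Figure D5:**
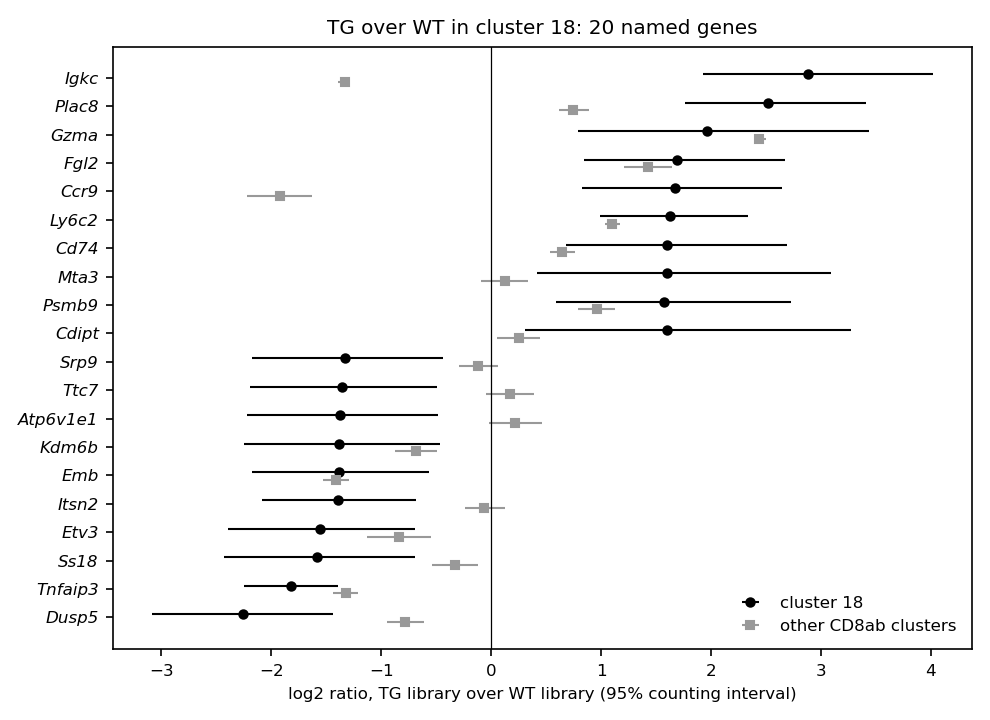
Log2 ratio of TG over WT (x axis) for 20 genes named by size, with 95% counting intervals, in cluster 18 (black circles) and in the other CD8αβ clusters (grey squares). Ccr9 lies at 1.67 in cluster 18 and -1.92 in the other clusters, while Tnfaip3 lies at -1.82 and -1.32.

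The interferon lists had medians near 0 between the genotypes within cluster 18, 0.03 over 25 genes for type I interferon and 0.11 over 11 for the IFN-γ GTPases, against -0.03 over all genes tested. Tgfbr2, the mouse gene of the type II TGF-β receptor, stood at 309 CPM (127 UMIs) in the TG and 202 CPM (18 UMIs) in WT members, a log2 ratio of 0.61 (-0.11 to 1.41), against 0.96 in the other CD8αβ clusters. The transgene is of human origin, and whether any of its reads count toward mouse Tgfbr2 was not tested. Of the TGF-β pathway genes, 1 of 6 tested was over 2-fold higher in TG members and 0 lower, which cannot be set apart from the 7.35% of all genes that were higher. Eomes was lower in TG members (-5.11, -8.29 to -3.01), on 2 and 15 UMIs, and at -4.65 among cells with a CD8 UMI. Prdm1, a repressor of transcription in resident and terminal effector cells, stood at 31.6 and 168 CPM on 13 and 15 UMIs, a ratio of -2.41 that was -1.28 among cells with a CD8 UMI. Eomes and Prdm1 fell below the minimum of 5 expected UMIs, so neither was among the genes tested for TG over WT.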

How the data were processed

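Liver CD45+ cells of TG and WT mice were captured in 2 pools, 1 per genotype. The authors aligned the reads to mm10 with STAR in the BD Rhapsody pipeline and deposited UMI counts of 11929 cells, 13528 genes and 49 antibodies after filtering that is not given in the sources used here. There, 630 genes were at 0 in every TG cell and 365 in every WT cell. The deposited normalised antibody values are centred ratios on the natural log scale, recomputed here with 0 values differing, and the deposited mitochondrial share is a percent. The authors joined the datasets by canonical correlation in Seurat before clustering. Their type names and cluster numbers were used as given. Whole library files hold 10026 and 24111 cells, including the other genotype of each pool, which was not used here. No column of per-sample values belonged to another sample.

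Counts were summed over the cells of a class and library and given as CPM, UMIs per 1000000 UMIs, with 95% exact Poisson intervals. Ratios have exact conditional binomial intervals, shares Clopper-Pearson intervals and differences between shares Newcombe intervals. With 1 library per genotype no p-value was computed. The quasi-likelihood test of edgeR needs replicates and was not run. A gene was tested for size where the smaller profile had at least 5 expected UMIs and was counted past 2-fold. List medians used a pseudocount of 0.5 UMIs.

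The members and the gene lists were chosen with earlier results of these data known. Genes named beside the lists were the 10 highest and 10 lowest (5 and 5 against CD8αα cells) by the smaller of the TG and WT log2 ratios, with the same sign, at least 50 UMIs in all, a direction kept under every scaling and no 3 cells with over 50% of the UMIs of the higher profile. For TG over WT within cluster 18 they were the 10 highest and 10 lowest ratios under the same limits on scaling and cells, with at least 50 UMIs over both profiles and 5 in each, and for antibodies the 5 highest and 5 lowest differences of medians. Other genes and antibodies singled out in the text were chosen after their values were seen. Neither choice asked for 5 expected UMIs in the smaller profile, so a printed ratio does not mean that the gene was tested for size. A gene and its antibody that the rule named are not reported here. Doublets were called with Scrublet at an expected rate of 5% (0.839% of TG and 3.31% of WT cells) and kept. Alternatives were TMM factors, totals that leave out ribosomal and mitochondrial genes, equal weights for cells or clusters, thinning to 1000 UMIs, no minimum count, no doublets, no cells with at least 2 B lineage UMIs, CD8αα cells without Trdc, and counts from the library files. The ratio calculation was tested on simulated data. Calculations used Python 3.11.15, numpy 2.4.6, scipy 1.17.1, pandas 2.3.3, statsmodels 0.14.6, scanpy 1.11.5 and edgeR 4.0.16 in R 4.3.3. Gene positions are those of the reference annotation of GRCm38, the assembly of mm10.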

Additional observations from a re-analysis of the deposited data

Results flagged for a closer look

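For 6 of 382 genes screened, cluster 18 lay on opposite sides of the other CD8αβ clusters in the 2 libraries, with both intervals clear of 0. The difference between the libraries was not tested, and the comparators are unlike, since cluster 4 gave 145 of 905 of these cells in TG and 363 of 782 in WT, and cluster 7 gave 319 and 132. The log2 ratio of cluster 18 over the other CD8αβ clusters in TG and WT was -0.38 and 0.73 for the chemokine gene Ccl5, and -0.86 and 0.62 for the ERK phosphatase gene Dusp5. It was -0.40 and 0.50 for Itga4, the α4 integrin chain, and -2.45 and 1.34 for Klrb1c, which encodes NK1.1. For Tbx21, the transcription factor T-bet, it was -0.53 and 1.2, and for the kinase gene Txk -0.73 and 1.00. Klrb1c rested on 11 UMIs in TG and 19 in WT, and Tbx21 on 61 and 12. Among cells with a Cd8a or Cd8b1 UMI the ratios of Klrb1c were -2.11 and 1.97 and those of Tbx21 -0.42 and 1.92. Without cluster 7 the TG ratios of Itga4 and Tbx21 came to -0.09 and -0.12.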

How the results depend on the processing

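With 152 members in 2 libraries, the WT values rest on 37 cells, and genes under a few UMIs there were not detectable as different at this depth. The share of cluster 18 was 14.0% in TG and 3.77% in WT when CD8αβ cells were limited to those with a Cd8a or Cd8b1 UMI. It was 8.04% and 3.65% of all CD8 cells and 2.47% and 0.508% of all cells. Genes past 2-fold numbered 1210 in TG and 430 in WT over the other CD8αβ clusters, 813 and 457 over CD8αα cells and 363 for TG over WT. In the same order they were 570, 174, 510, 202 and 156 with every cell thinned to 1000 UMIs, which leaves fewer genes tested, and 3605, 5472, 2669, 3994 and 2834 with no minimum count, which adds genes of few UMIs. Among cells with a CD8 UMI, chosen after the data were seen, they were 1123, 288, 810, 341 and 269. Some list medians changed sign. Against the other CD8αβ clusters, the B cell list in TG came to 0.15 without cells holding B lineage UMIs, the myeloid list in WT to 0.02 without doublets and 0.01 without those cells, and the immediate early list in TG to -0.01 with equal weight per cluster and -0.17 without cluster 7. Without cluster 7, also chosen after the data were seen, the cell cycle list came to 0.00 in TG and 0.61 in WT, Pclaf to 0.86 in TG, Ccna2 to 1.00 and 1.35, Tpx2 to 1.15 and 2.93, Rrm2 to 0.61 in WT and Nusap1 to 2.19 in WT. In WT these 4 genes, and 5 of the 15 genes of that list tested, had 0 UMIs in cluster 18, so their WT values are set by the pseudocount and are no measured rises, and in TG Ccna2 and Tpx2 had 2 and 3 UMIs. Against CD8αα cells, the myeloid list in WT came to 0.32 after thinning, and Trdc to 1.61 and 1.83 against cells without a Trdc UMI, where both sides are at 0. For TG over WT, the CD4 T cell list came to -0.43 after thinning. With the ratio of the other CD8αβ clusters subtracted, the immediate early list came to 0.00, the type 17 list to 0.12, Gzma to -0.59 and Emb to 0.02. The cause of the other changes was not tested. For the named genes 796 values kept their direction and size, 55 moved and 11 changed sign, and for the lists 1163, 82 and 11. No paired analysis was possible because each genotype has 1 library and its number pairs no samples.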
